A study of Mus musculus with 24 samples.

Results

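The genes described are capping sialyltransferases, enzymes of the Golgi that close a sugar chain by adding sialic acid in alpha-2,3 linkage (St3gal genes) or alpha-2,6 linkage (St6gal and St6galnac genes). They were followed in mouse retina on a focused Affymetrix array of glycan-related genes, by taking every probe set whose transcript identifier maps to one of 9 listed genes. A probe set was found for 8 of the 9, 1 each: St3gal1, St3gal2, St3gal3, St3gal4, St3gal6, St6gal1, St6galnac2 and St6galnac4. No named probe set mapped to St6gal2, and whether one of the 283 unnamed probe sets stands for it is not known, so it is not analysed here. The array held 1246 probe sets, of which 963 could be named and stood for 909 genes.

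RP mutant mice carrying the P347S transgene (P347S+) were compared with normal mice (P347S-) at each of 4 ages, from 1 month to 4 months in steps of 1, with 3 arrays of whole retina in each of the 8 groups and 24 arrays in all. By the study's design text, photoreceptors are lost progressively in this line, and the ages were chosen to cover its early, middle and late stages. Sex is given as unknown. The strain background, the promoter of the transgene, and whether each array came from a separate animal or a pool are not given in the sources used here, so p-values measure only the spread between these arrays, which may be technical.

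Sialic acid at the end of a glycan gives the cell surface its negative charge, masks the galactose beneath it from galectins and forms the ligands of siglecs, receptors carried largely by immune cells and, in the brain and retina, by microglia. The enzymes differ in the chain they finish. St3gal1 and St3gal2 act on the galactose of the O-glycan core, St3gal2 also on gangliosides, and St6galnac2 and St6galnac4 add sialic acid to the GalNAc at the base of that core. St3gal3, St3gal4 and St3gal6 cap the N-acetyllactosamine ends of N-glycans and related chains in alpha-2,3 linkage, while St6gal1 caps the same ends in alpha-2,6 linkage.

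Values are log2 RMA signals as deposited, and a difference of 1 is 2-fold in signal. Signals of different probe sets are not comparable with each other, so only differences between arrays are read. A gene was called when its adjusted p was under 0.05 in one limma fit of all 24 arrays, adjusted over the 1246 probe sets. Whole retina was measured, so fewer cells of a type and less RNA per cell cannot be told apart.

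Averaged over the 4 ages, 5 of the 8 measured members differed between the genotypes. St3gal4, St3gal6 and St6gal1, all of which cap N-acetyllactosamine, were higher in mutant retinas, and St3gal1 and St6galnac2, both of which act on the O-glycan core, were lower. St3gal2, St3gal3 and St6galnac4 did not pass. The background of this comparison was high, since 22.6% of all probe sets were called in it, 13.8% higher and 8.83% lower. Higher ones made up 61.0% of these calls, and 50.6% of them after quantile normalization was repeated. The median difference was 0.02 over the 8 members and -0.03 over all probe sets. At an unadjusted p under 0.05, 7 of the 8 members differed, against 35.6% of all probe sets.

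**Figure D1:**
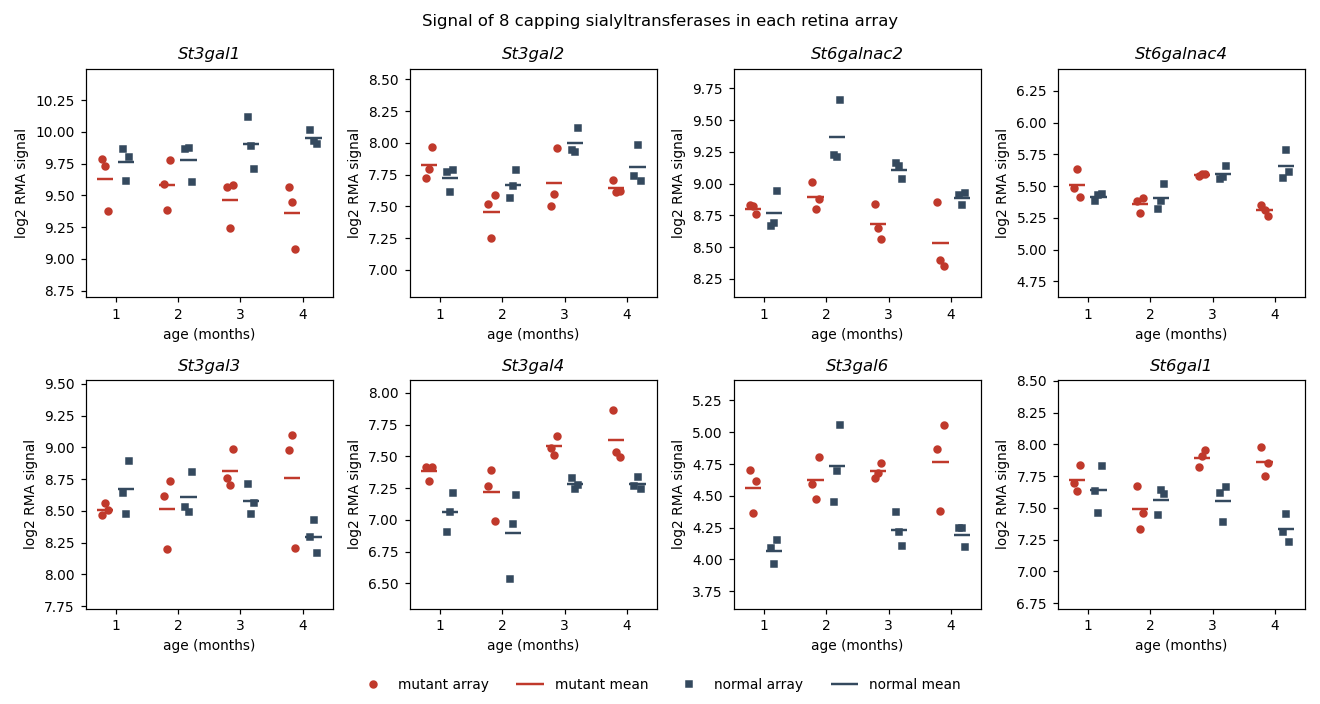
Log2 RMA signal of each member by age in months, with mutant arrays as circles on the left of each age, normal arrays as squares on the right, and a short line at the mean of 3 arrays. All panels span the same height, and the St3gal1 means of the 4 mutant groups, 9.36 to 9.63, all lie below those of the 4 normal groups, 9.76 to 9.95.

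Among the O-glycan enzymes, St3gal1, which adds alpha-2,3 sialic acid to the core 1 disaccharide, was lower in mutant retinas by 0.34 ± 0.07 on the log2 scale over the 4 ages (SE, limma adjusted p = 0.0015), or 1.26-fold lower, with the same sign at 4 of 4 ages. At 1 month St3gal1 read 9.78, 9.73 and 9.38 on the mutant arrays and 9.86, 9.62 and 9.80 on the normal arrays. At 2 months St3gal1 read 9.59, 9.38 and 9.78 in mutant retinas and 9.86, 9.87 and 9.61 in normal retinas. The groups overlapped at both of these ages, and the differences of -0.13 and -0.20 had adjusted p-values of 0.911 and 0.562 in limma. At 3 months St3gal1 read 9.57, 9.25 and 9.58 in mutant retinas and 10.12, 9.89 and 9.71 in normal retinas. At 4 months St3gal1 read 9.56, 9.44 and 9.08 in mutant retinas and 10.01, 9.93 and 9.91 in normal retinas. Every mutant array lay below every normal array at both ages. The difference was -0.44 ± 0.14 at 3 months (limma adjusted p = 0.0478) and -0.59 ± 0.14 at 4 months (limma adjusted p = 0.00771). The 3-month call lay at the threshold: it held without any 1 of mutant array 3 at 1 month, mutant arrays 2 and 3 and normal arrays 1 and 3 at 2 months, normal array 3 at 3 months, or mutant arrays 1 and 3 at 4 months, and was lost without any 1 of the other 16 arrays (adjusted p 0.0508 to 0.203). It was also lost without the 3 arrays of high signal of the lens gene Grifin, described with St6galnac2 (0.0536). The replicate number as a block at all 4 ages (0.0585) and array weights (0.0692) lost it too. So did a fit of that age alone (0.0960) and Grifin and Dcn as covariates (0.116). The 4-month call held without any single array.

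In the order of its 8 group means, St3gal1 had the 4 mutant groups at the bottom, with means of 9.36 ± 0.25 (4 months), 9.47 ± 0.19 (3 months), 9.59 ± 0.20 (2 months) and 9.63 ± 0.22 (1 month). Above them came the normal groups, with 9.76 ± 0.13 (1 month), 9.78 ± 0.15 (2 months), 9.91 ± 0.21 (3 months) and 9.95 ± 0.06 (4 months; SD, n = 3 each). None of the 7 neighbouring pairs in this order differed by more than the larger of their SDs. The change between 1 and 4 months was tested within each genotype and passed in neither: it was -0.27 in mutant retinas (limma adjusted p = 0.397) and 0.19 in normal retinas (limma adjusted p = 0.959).

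St6galnac2, which adds alpha-2,6 sialic acid to the GalNAc of O-glycans, was lower in mutant retinas by 0.30 ± 0.06 over the 4 ages (limma adjusted p = 0.00137), or 1.23-fold, with the same sign at 3 of 4 ages. At 1 month St6galnac2 read 8.83, 8.82 and 8.76 on the mutant arrays and 8.67, 8.69 and 8.94 on the normal arrays, and the groups overlapped (0.04 ± 0.13, limma adjusted p = 0.978). At 2 months St6galnac2 read 9.01, 8.80 and 8.88 in mutant retinas and 9.23, 9.21 and 9.66 in normal retinas. At 3 months St6galnac2 read 8.84, 8.65 and 8.56 in mutant retinas and 9.16, 9.13 and 9.03 in normal retinas. All mutant arrays lay below all normal arrays at these 2 ages, and the signal was 1.38-fold lower at 2 months and 1.34-fold lower at 3 months. At 4 months St6galnac2 read 8.86, 8.40 and 8.35 in mutant retinas and 8.91, 8.83 and 8.92 in normal retinas, where the highest mutant array overlapped the normal ones (-0.35 ± 0.13, limma adjusted p = 0.0687). Without that mutant array, number 1, the 4-month difference was -0.52 and passed (limma adjusted p = 0.00939), and it also passed without normal array 3 of 2 months (0.0361), with array weights (0.0340) and after repeated quantile normalization (0.0289).

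The 2-month difference of St6galnac2, -0.47 ± 0.13 (limma adjusted p = 0.0447), depended on how the arrays were handled. The labels do not say what the replicate numbers mark. Arrays of equal number deviated together at 2 months (r = 0.245 to 0.662) and were taken as paired at that age. With the replicate number as a block the limma adjusted p was 0.0600 in all arrays and 0.108 in the 6 arrays of that age alone. The lens gene Grifin read above log2 10 on 3 arrays (10.16 to 11.33), against 5.69 to 8.77 on the other 21. The 3 were mutant array 2 of 2 months, normal array 2 of 2 months and normal array 1 of 4 months. Without these 3 arrays the 2-month difference was -0.50 and the limma adjusted p was 0.164. With the signals of Grifin and the connective tissue gene Dcn as covariates it was 0.235, after repeated quantile normalization 0.0703, and in a fit of that age alone 0.210. It was also lost without any 1 of 12 arrays: mutant arrays 2 (0.170) and 3 (0.0906) and normal array 3 (0.251) of 2 months, and mutant arrays 1, 2 and 3 and normal array 1 of 1 month, normal arrays 1 and 3 of 3 months and normal arrays 1, 2 and 3 of 4 months (0.0503 to 0.0561). The 3-month difference, -0.43 ± 0.13 (limma adjusted p = 0.0319), was lost without mutant array 2 (0.0886) or 3 (0.125) or normal array 1 (0.0983) or 2 (0.0941) of that age, with Grifin and Dcn as covariates (0.0557), in a fit of that age alone (0.0613) and with array weights (0.0685).

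By group mean St6galnac2 was lowest in mutant retinas at 4 months, 8.54 ± 0.28, and highest in normal retinas at 2 months, 9.36 ± 0.25 (SD, n = 3 each). Of the 7 neighbouring pairs in its order, 2 differed by more than the larger SD: mutant 2 months (8.90 ± 0.11) below normal 3 months (9.11 ± 0.07), and mutant 1 month (8.80 ± 0.04) below normal 4 months (8.89 ± 0.05).

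St6galnac4, which makes the disialylated core by adding to an already alpha-2,3 sialylated O-glycan, differed from normal at 1 age. At 4 months St6galnac4 read 5.35, 5.31 and 5.27 in mutant retinas and 5.57, 5.78 and 5.61 in normal retinas. No array overlapped, and the difference of -0.34 ± 0.07 (limma adjusted p = 0.00294, 1.27-fold lower) held without any single array. At 1 month St6galnac4 read 5.48, 5.63 and 5.42 in mutant retinas and 5.38, 5.43 and 5.44 in normal retinas. At 2 months St6galnac4 read 5.38, 5.29 and 5.40 in mutant retinas and 5.32, 5.39 and 5.52 in normal retinas. At 3 months St6galnac4 read 5.58, 5.60 and 5.60 in mutant retinas and 5.56, 5.57 and 5.66 in normal retinas. The groups overlapped at these ages, the differences were 0.09, -0.05 and -0.01, and the mean over the 4 ages, -0.08 ± 0.04, did not pass (limma adjusted p = 0.132). The probe set has the suffix that Affymetrix uses for probes shared among transcripts.

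St3gal2, the partner of St3gal1 on the O-glycan core and an enzyme of ganglioside sialylation, read 7.25 to 7.97 on the 12 mutant arrays, median 7.62, and 7.57 to 8.11 on the 12 normal arrays, median 7.78. Its difference over the 4 ages was -0.15 ± 0.06 and missed the threshold (limma adjusted p = 0.0716), with differences of 0.11, -0.22, -0.31 and -0.16 from 1 to 4 months and overlap at every age. The mean difference passed without mutant array 3 of 2 months (0.0419) or mutant array 3 of 3 months (0.0158) and with the replicate number as a block (0.0457). At 3 months St3gal2 read 7.50, 7.60 and 7.96 in mutant retinas and 7.94, 7.93 and 8.11 in normal retinas, so that 1 mutant array, number 3, lay among the normal ones. Without it the 3-month difference passed (limma adjusted p = 0.0255, against 0.0791 with it). With all arrays kept it also passed after repeated quantile normalization (-0.39, 0.00809) and with array weights (-0.39, 0.0398).

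Among the N-acetyllactosamine enzymes, St3gal4, which makes alpha-2,3 caps used in selectin ligands, was higher in mutant retinas by 0.32 ± 0.07 over the 4 ages (SE, limma adjusted p = 0.00134), or 1.25-fold. At 1 month St3gal4 read 7.41, 7.31 and 7.42 on the mutant arrays and 6.90, 7.06 and 7.21 on the normal arrays. At 2 months St3gal4 read 7.27, 7.39 and 6.99 in mutant retinas and 6.54, 6.96 and 7.19 in normal retinas. Mutant array 3 of 2 months fell below a normal array, and at the other ages every mutant array lay above every normal one. At 3 months St3gal4 read 7.57, 7.51 and 7.66 in mutant retinas and 7.33, 7.24 and 7.28 in normal retinas. At 4 months St3gal4 read 7.87, 7.53 and 7.49 in mutant retinas and 7.27, 7.34 and 7.24 in normal retinas. The difference was of like size at each age, 0.32, 0.32, 0.30 and 0.35 with an SE of 0.13, and at no single age did it pass (limma adjusted p = 0.404, 0.227, 0.14 and 0.0963 from 1 to 4 months). At 4 months it passed without normal array 1 of 2 months (0.0365) and with array weights (0.0332), and it was 0.23 without mutant array 1 of 4 months (0.351). The probe set has the suffix for shared probes.

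By group mean St3gal4 ran from 7.63 ± 0.21 in mutant retinas at 4 months to 6.90 ± 0.33 in normal retinas at 2 months (SD, n = 3 each). Among its 7 neighbouring pairs, 2 differed by more than the larger SD: mutant 3 months (7.58 ± 0.08) above mutant 1 month (7.38 ± 0.06), and mutant 1 month above normal 4 months (7.28 ± 0.05).

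St3gal6, an alpha-2,3 enzyme that works beside St3gal4 on selectin ligands in mouse leukocytes, was higher in mutant retinas by 0.35 ± 0.08 over the 4 ages (limma adjusted p = 0.0017), or 1.28-fold, with the same sign at 3 of 4 ages. At 1 month St3gal6 read 4.70, 4.36 and 4.62 in mutant retinas and 4.09, 3.96 and 4.15 in normal retinas, without overlap (0.49 ± 0.15, limma adjusted p = 0.166). At 2 months St3gal6 read 4.60, 4.48 and 4.81 in mutant retinas and 4.45, 4.70 and 5.06 in normal retinas. Here the groups overlapped and the difference was -0.11, with limma adjusted p = 0.803. At 3 months St3gal6 read 4.64, 4.68 and 4.76 in mutant retinas and 4.38, 4.21 and 4.10 in normal retinas. At 4 months St3gal6 read 4.87, 4.38 and 5.06 in mutant retinas and 4.24, 4.24 and 4.10 in normal retinas. No array overlapped at these ages. The difference was 0.46 ± 0.15 at 3 months, just outside the threshold (limma adjusted p = 0.0516), and 0.57 ± 0.15 at 4 months (limma adjusted p = 0.0134, 1.49-fold).

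The 3-month difference of St3gal6 passed without any 1 of 5 arrays (0.0258 to 0.0475): mutant array 3 and normal arrays 1 and 3 of 2 months, and mutant arrays 2 and 3 of 4 months. With all arrays it also passed with arrays centred on their medians (0.0265), repeated quantile normalization (0.0307), the replicate number as a block (0.0395), an intensity trend (0.0441), a fit of that age alone (0.0446) and a filter at the 25th percentile of signal (0.0470). The 4-month call was lost without mutant array 1 (0.0610), mutant array 3 (0.0802) or normal array 3 (0.0685) of that age, and in a fit of that age alone (0.0758). The signal of St3gal6 was low, with a mean of 4.48 over all arrays between the 25th percentile (3.83) and the median (5.26) of all probe sets. The background of the arrays is not known from the deposited values, so the size of its fold is uncertain. By group mean 5 groups led closely together, the 4 mutant ages and normal 2 months (4.74 ± 0.31), between 4.56 and 4.77. A gap of over 1 SD separated mutant 1 month (4.56 ± 0.18) from normal 3 months (4.23 ± 0.14), and another separated normal 4 months (4.19 ± 0.08) from normal 1 month (4.07 ± 0.10).

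St6gal1, the alpha-2,6 enzyme of N-glycans that makes the ligand of the B-cell siglec Cd22, was higher in mutant retinas by 0.22 ± 0.05 over the 4 ages (limma adjusted p = 0.00485), or 1.16-fold, with the same sign at 3 of 4 ages. At 1 month St6gal1 read 7.70, 7.63 and 7.84 in mutant retinas and 7.63, 7.46 and 7.83 in normal retinas. At 2 months St6gal1 read 7.68, 7.34 and 7.46 in mutant retinas and 7.45, 7.64 and 7.61 in normal retinas. The groups overlapped at both ages, with differences of 0.08 and -0.07 (limma adjusted p = 0.919 and 0.817). At 3 months St6gal1 read 7.82, 7.91 and 7.96 in mutant retinas and 7.62, 7.39 and 7.66 in normal retinas. At 4 months St6gal1 read 7.98, 7.75 and 7.85 in mutant retinas and 7.31, 7.45 and 7.23 in normal retinas. Every mutant array lay above every normal array at both ages.

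The St6gal1 difference was 0.34 ± 0.11 at 3 months (limma adjusted p = 0.0421, 1.26-fold) and 0.53 ± 0.11 at 4 months (limma adjusted p = 0.00212, 1.44-fold). The 3-month call was lost without any 1 of 6 arrays: mutant array 2 (0.101), mutant array 3 (0.130), normal array 1 (0.0727) and normal array 2 (0.198) of that age, and mutant array 1 (0.0518) and normal array 1 (0.0512) of 1 month. It was lost as well with an intensity trend (0.0550), the replicate number as a block (0.0585), array weights (0.0807), a fit of that age alone (0.0906) and Grifin and Dcn as covariates (0.0955). The 4-month call held without any single array. Between 1 and 4 months St6gal1 changed by 0.14 in mutant retinas (limma adjusted p = 0.664) and by -0.31 in normal retinas (limma adjusted p = 0.339). By group mean the highest level was 7.90 ± 0.07 in mutant retinas at 3 months and the lowest 7.33 ± 0.11 in normal retinas at 4 months. Mutant 4 months (7.86 ± 0.12) above mutant 1 month (7.72 ± 0.11) was the 1 neighbouring pair of 7 that differed by more than the larger SD.

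St3gal3, an alpha-2,3 enzyme with a broad range of lactosamine acceptors, read 8.20 to 9.10 on the 12 mutant arrays, median 8.66, and 8.17 to 8.90 on the 12 normal arrays, median 8.51. Over the 4 ages it differed by 0.11 ± 0.09 (limma adjusted p = 0.378), with differences of -0.16, -0.09, 0.23 and 0.47 from 1 to 4 months. At 4 months St3gal3 read 8.98, 9.10 and 8.21 in mutant retinas and 8.29, 8.42 and 8.17 in normal retinas. Mutant array 3 lay among the normal arrays while the other 2 lay above them all, and the SD of 0.48 in this group was the widest of any member. The 4-month difference, 0.47 ± 0.18 (limma adjusted p = 0.0922), became 0.74 without that array and passed (0.00193), as it did with array weights (0.00247), the replicate number as a block (0.0321) and arrays centred on their medians (0.0383). On the same array Dcn read 6.51, the second highest of the 24 arrays after normal array 3 of 2 months at 6.90. With Grifin and Dcn together as covariates the 4-month difference was 0.45 (limma adjusted p = 0.124). The part of Dcn alone was not tested.

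**Figure D2:**
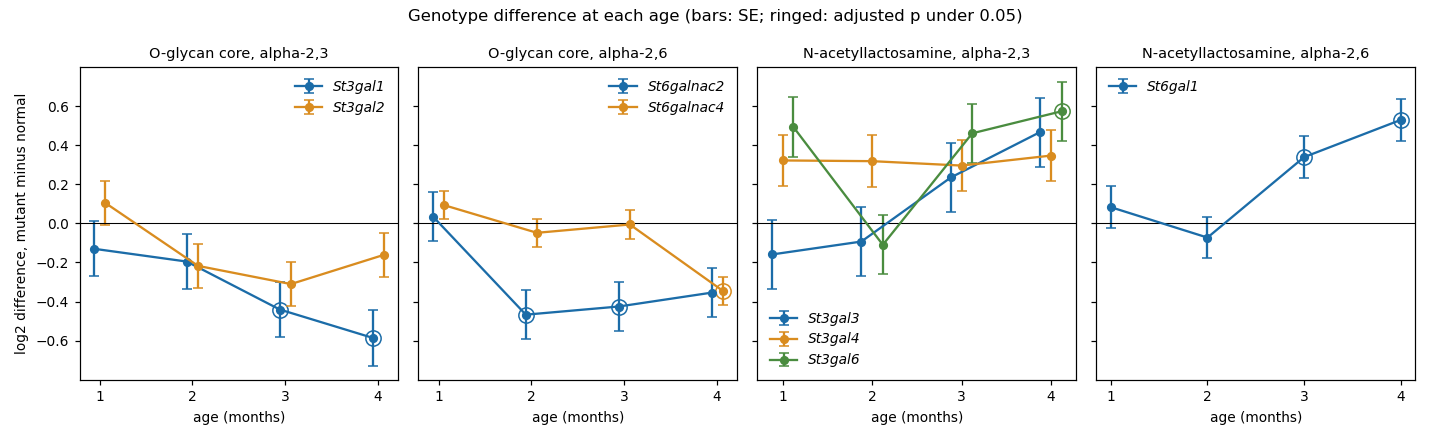
Log2 difference, mutant minus normal, at 1, 2, 3 and 4 months for each member, with panels by acceptor and linkage, bars giving the SE, and rings marking adjusted p-values under 0.05. St3gal1 runs between -0.13 and -0.59, St3gal4 stays between 0.30 and 0.35, and St6gal1 is near 0 at 1 and 2 months and at 0.53 at 4 months.

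Seen age by age, limma called 0 of the 8 members at 1 month, where 0.321% of all probe sets were called. At an unadjusted p under 0.05 it called 2 of them, against 9.23% of all probe sets. The groups did not overlap for 2 members, St3gal4 and St3gal6, both higher, while 22.1% of all probe sets were free of overlap and 10.4% were so and higher. At 2 months 1 of 8 was called, St6galnac2, and lower, against 3.45% of all probe sets called and 1.93% called lower. It was the 1 member without overlap (17.4% of all probe sets, and 8.35% lower). That fit ignored the pairing of arrays taken at 2 months. With the replicate number as a block, 0 of 8 members were called at this age, and 30 of all 1246 probe sets. At 3 months 3 of 8 were called, St6gal1 higher and St3gal1 and St6galnac2 lower, against 12% of all probe sets, 6.66% higher and 5.38% lower. At 4 months 4 of 8 were called, St3gal6 and St6gal1 higher and St3gal1 and St6galnac4 lower, against 12.9% of all probe sets, 9.47% higher and 3.45% lower, and the share of higher ones among these calls was 73.3%, or 53.5% after repeated quantile normalization. At 3 months 3 members were higher and 2 lower without overlap, where 32.6% of all probe sets were free of overlap, 13.2% higher and 19.4% lower. At 4 months it was again 3 higher and 2 lower, where 30% of all probe sets were free of overlap, 17.1% higher and 12.9% lower. The same 3 members were higher without overlap at both ages, St3gal4, St3gal6 and St6gal1.

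Whether the genotype difference itself changed with age was asked with limma's moderated F test, and 0 of 8 members passed. Their adjusted p-values ran from 0.116 for St6galnac4 and 0.145 for St6gal1 to 0.996 for St3gal4. At an unadjusted p under 0.05 there were 4 members, against 14.4% of all probe sets, and 0.321% of all probe sets passed after adjustment. A call at 4 months and none at 1 month was thus not shown to be a change for any member. Between 1 and 4 months within a genotype, limma called 0 of 8 in mutant retinas (2.65% of all probe sets) and 0 of 8 in normal retinas (0% of all probe sets). At an unadjusted p under 0.05 there were 2 members in mutant retinas, against 15.1% of all probe sets, and 3 in normal retinas, against 7.38%.

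Enzymes of like acceptor were then set against each other within each array, as the difference of their log2 signals. For 5 pairs the mutant minus normal difference of this log2 ratio was averaged over the 4 ages and tested with an exact two-sided permutation of genotype within age (160000 assignments, smallest possible p 1.25e-05), adjusted over the 5 pairs. On the O-glycan core, St6galnac2 relative to St6galnac4 differed by -0.23 in mutant retinas (exact permutation p = 0.00636, adjusted 0.0318). That test ignored the pairing of arrays at 2 months, which was inferred from the values and is not given by the labels. With genotype exchanged only between arrays of equal number at that age, the adjusted exact permutation p was 0.0577 and the call was lost. The direction was the same at 4 of 4 ages, though the size was -0.06, -0.42, -0.42 and -0.01 from 1 to 4 months. The 2 probe sets read at unlike levels, with means over all arrays of 8.88 for St6galnac2 and 5.48 for St6galnac4. The background of the arrays is not known, and whether log2 differences at these levels are on one scale was not tested. The call was lost too without the 3 arrays of high Grifin signal, with the difference still at -0.23 (adjusted exact permutation p = 0.129). It was also lost without any 1 of 9 arrays (adjusted exact permutation p 0.0509 to 0.0821): mutant array 2 and normal array 3 of 1 month, mutant array 3 of 2 months, mutant array 3 and normal arrays 1 and 2 of 3 months, and mutant array 3 and normal arrays 1 and 3 of 4 months.

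St3gal1 relative to St3gal2 differed by -0.19 (exact permutation p = 0.053, adjusted 0.125), lower at 3 of 4 ages. It passed without normal array 3 of 2 months (adjusted exact permutation p = 0.0306). Among the N-acetyllactosamine enzymes no pair passed. St3gal4 relative to St3gal3 differed by 0.21 (exact permutation p = 0.0747, adjusted 0.125), and passed without mutant array 2 of 4 months (adjusted 0.0415, exact permutation). St3gal4 relative to St3gal6 differed by -0.03 (exact permutation p = 0.749), and its value lay between -0.07 and 0.02 when each array was left out in turn. St3gal4 relative to St6gal1 differed by 0.10 (exact permutation p = 0.232, adjusted 0.289), with 0.24 and 0.39 at 1 and 2 months and -0.04 and -0.18 at 3 and 4 months. A p above the threshold does not show that these enzymes moved alike.

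**Figure D3:**
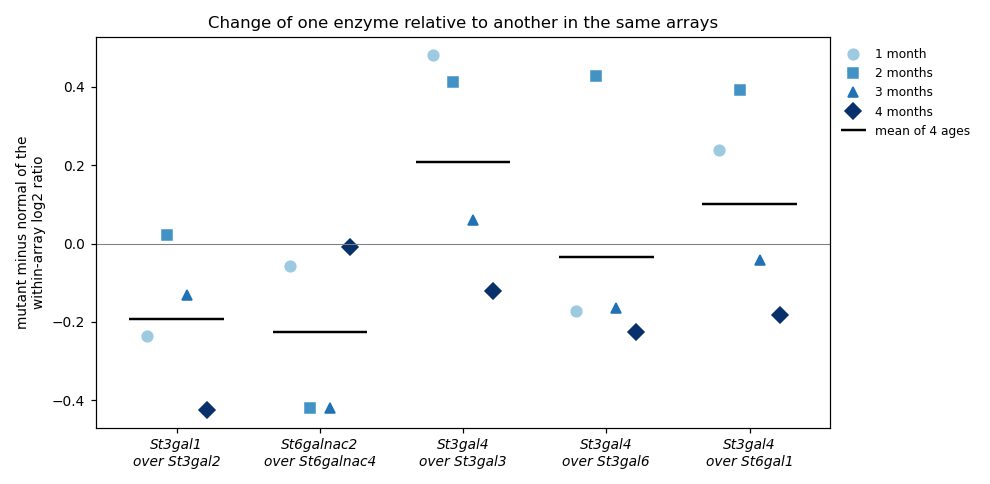
Mutant minus normal of the within-array log2 ratio for 5 pairs of members, with a symbol for each age and a line at the mean of 4 ages. St6galnac2 over St6galnac4 is at or below 0 at each age with a mean of -0.23, and the 3 pairs led by St3gal4 have points on both sides of 0.

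Promoter windows in RefSeq (mouse build GRCm38.p6, 300 bases around a transcript start) existed for 6 of the 9 listed genes, 9 windows in all. Those shown belong to the 3 members that were higher in mutant retinas, 1 window each, picked after their motif matches were seen, and the array does not tell from which start a transcript came. Capitals mark matches on either strand to the GC box GGGCGG, seen as CCGCCC on the other strand, to the Crx core TAATCC and to the AP-1 site TGANTCA. Crx is a transcription factor of photoreceptors. The windows are St3gal4 at chr9:35116815-35117114 (minus strand), St3gal6 at chr16:58523377-58523676 (minus strand) and St6gal1 at chr16:23290220-23290519 (plus strand), each written 5′ to 3′ in the direction of transcription.
St3gal4: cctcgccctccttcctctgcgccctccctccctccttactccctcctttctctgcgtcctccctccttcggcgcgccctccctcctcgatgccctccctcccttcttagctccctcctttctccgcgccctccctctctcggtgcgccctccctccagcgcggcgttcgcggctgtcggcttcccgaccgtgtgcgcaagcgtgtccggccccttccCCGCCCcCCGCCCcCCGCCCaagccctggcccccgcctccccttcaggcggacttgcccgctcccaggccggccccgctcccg
St3gal6: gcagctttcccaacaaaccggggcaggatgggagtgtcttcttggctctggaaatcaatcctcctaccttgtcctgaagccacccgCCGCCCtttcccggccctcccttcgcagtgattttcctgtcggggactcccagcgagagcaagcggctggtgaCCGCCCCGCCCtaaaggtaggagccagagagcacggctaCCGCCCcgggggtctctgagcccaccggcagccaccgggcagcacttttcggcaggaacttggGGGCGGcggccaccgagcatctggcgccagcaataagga
St6gal1: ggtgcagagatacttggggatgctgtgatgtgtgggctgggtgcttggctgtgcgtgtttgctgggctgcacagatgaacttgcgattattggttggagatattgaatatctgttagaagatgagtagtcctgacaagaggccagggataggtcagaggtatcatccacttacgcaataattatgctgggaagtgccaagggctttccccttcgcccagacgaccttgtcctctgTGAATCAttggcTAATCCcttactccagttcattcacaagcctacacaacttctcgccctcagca

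The St3gal4 window held 3 GC boxes and the St3gal6 window 5, of which 2 overlap, while 35.7% of 32851 RefSeq promoter windows of that length held at least 1. The St6gal1 window held 1 AP-1 site, present in 7.81% of windows, and 1 Crx core, present in 7.06%. The letters of the STAT site TTCNNNGAA and of the E-box CACGTG were in none of the 3. A second window of St3gal6 and 2 further windows of St6gal1 lacked the Crx core and the AP-1 site. GC boxes were not particular to the members that were higher. The windows of other listed genes held 3 for St6galnac4, 2 for St3gal3 and 1 for St6gal2. A further window of St6gal1 held 1, while the St6gal1 window shown and the second window of St3gal6 held 0. A match is a description of letters and was not tied to the differences in signal.

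In the rest of the sialyltransferase family, all 11 of 11 genes were measured, and over the 4 ages 3 were higher in mutant retinas, 1 was lower and 7 did not pass, with a median difference of 0.14 against -0.03 over all probe sets. St8sia3, an alpha-2,8 enzyme of gangliosides and glycoproteins in neurons, was higher by 0.44 ± 0.06 (SE, limma adjusted p = 6.52e-06). St6galnac5, which makes alpha-series gangliosides in brain, was higher by 0.32 ± 0.08 (limma adjusted p = 0.00494). St8sia5, which extends gangliosides, was higher by 0.21 ± 0.06 (limma adjusted p = 0.00835). St8sia1, the GD3 synthase, was lower by 0.43 ± 0.07 (limma adjusted p = 0.000212). The probe sets of St8sia1 and St8sia5 have the suffix for shared probes. At 4 months 2 were higher and 1 lower, and the median difference was 0.33 against -0.01 over all probe sets. Of all probe sets 22.6% were called over the 4 ages and 12.9% at 4 months.

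Of 6 genes that supply the donor sugar 5 were measured, with 1 higher, 1 lower and 3 not called, and a median of -0.04. For this list and the next 2, the share of all probe sets called over the 4 ages was 22.6%. At an unadjusted p under 0.05 it was 35.6%, and the median of all probe sets was -0.03. Cmas, which activates sialic acid to its CMP form, was higher in mutant retinas by 0.13 ± 0.04 (limma adjusted p = 0.0173). Gne, the first and rate-limiting enzyme of sialic acid synthesis, was lower by 0.18 ± 0.06 (limma adjusted p = 0.0325). Of 8 genes of removal and modification 4 were measured, Neu1, Neu2, Neu3 and Npl, and limma called 0 of 4, also at an unadjusted p under 0.05, with a median of -0.02. All 12 readers, the siglecs and selectins listed, were measured: 1 was higher, 1 lower and 10 did not pass, with a median of -0.02. Siglech, a siglec of microglia whose probe set may match several genes, was higher by 0.40 ± 0.07 (limma adjusted p = 0.000146). Siglec15 was lower by 0.12 ± 0.04 (limma adjusted p = 0.0364).

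**Figure D4:**
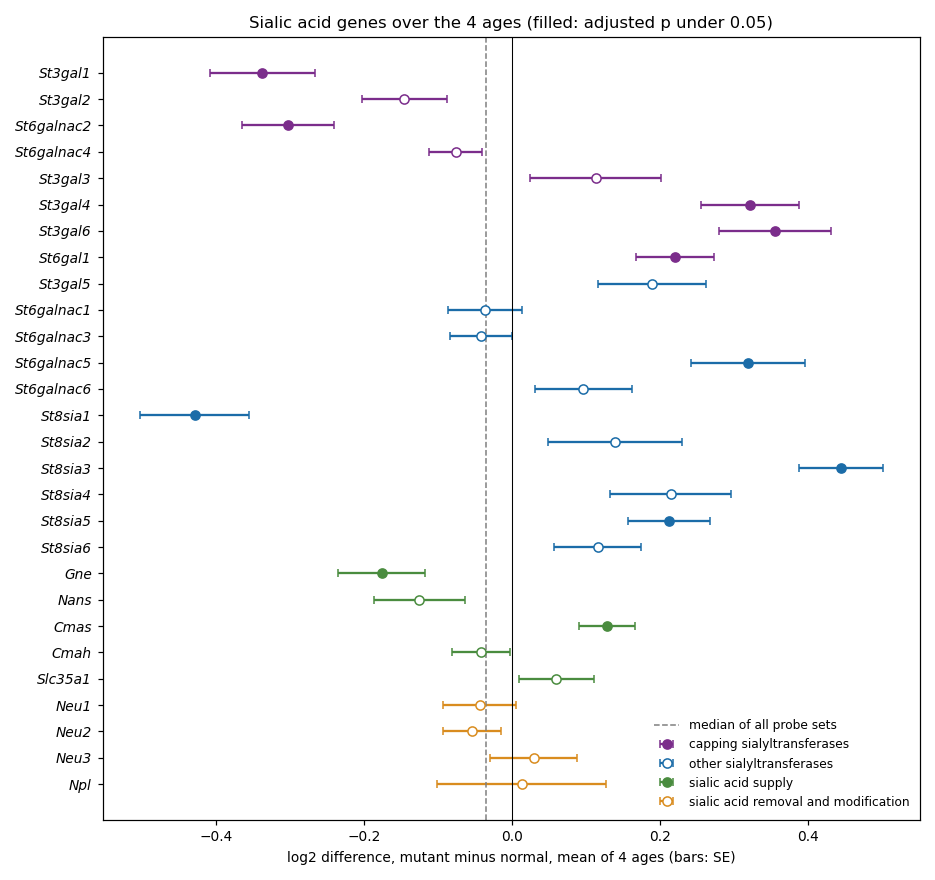
Log2 difference, mutant minus normal, as the mean of 4 ages with its SE, for the members, the other sialyltransferases and the genes of sialic acid supply and removal, with filled points for adjusted p-values under 0.05 and a dashed line at the median of all probe sets, -0.03. Members on the O-glycan core lie left of 0, the N-acetyllactosamine members right of it, and St8sia1 at -0.43 and St8sia3 at 0.44 mark the ends.

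Some of the listed cell markers differed between the genotypes. Over the 4 ages 13.8% of all probe sets were called higher and 8.83% lower. Of 8 microglia and macrophage markers 4 were measured (Csf1r, Cx3cr1, Adgre1 and Siglech) and 4 of 4 were higher over the 4 ages, with a log2 summed signal of 8.66 to 9.66 on the mutant arrays and 7.99 to 8.37 on the normal arrays. Of 8 markers of reactive Müller glia 4 were measured (Vcam1, Icam1, Fgf2 and Cd44) and 4 of 4 were higher, with 8.19 to 9.64 in mutant and 7.54 to 9.01 in normal retinas. Of 5 endothelial markers 3 were measured and 2 were higher, Cd34 and Mcam, while Pecam1 was not called (-0.05 ± 0.08, limma adjusted p = 0.712). Their log2 summed signal was 6.78 to 7.55 in mutant and 6.74 to 7.12 in normal retinas. Gnb1, a transducin subunit of rods, was the 1 rod marker of 5 measured and fell by 0.21 ± 0.06 (limma adjusted p = 0.0121), reading 12.62 to 13.04 in mutant and 12.64 to 13.26 in normal retinas. Of 3 blood markers 2 were measured: Pf4 was lower by 0.17 ± 0.05 (limma adjusted p = 0.0133) and Ppbp was not called. Grifin (lens), Dcn and Lum (connective tissue) and L1cam (ganglion cells) were not called either. The probe sets of Cx3cr1, Fgf2, Gnb1, Dcn and Pf4 have the suffix for shared probes, and that of Siglech may match several genes. Defining markers such as Gfap, Rlbp1, Gnat1 and Pde6b were not among the named probe sets, so the tissue label rests here on few genes. The part of these cells in the differences of the members was not tested.

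Likeness to other named genes was read as Pearson's r over the 24 arrays, which share the genotype difference, the age groups and the array itself, and is given as a description. St3gal1 was most like Cog1 (0.837) and Ext2 (0.788). St3gal4 was most like Siglech (0.844), whose probe set may match several genes, and Gpc3 (0.842). St3gal6 came closest to Dhrs1 (0.802) and Bmp4 (0.768). St6gal1 came closest to Agrn (0.830) and Hs3st5 (0.829). St6galnac2 came closest to Acvr2b (0.874) and Chst3 (0.823), and Chst3, a chondroitin 6-sulfotransferase, was itself lower in mutant retinas by 0.55 ± 0.06 (limma adjusted p = 2.39e-06).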

How the data were processed

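Total RNA from retina was labelled as biotinylated cRNA and hybridised to 24 Affymetrix arrays. The deposited values are log2 signals from RMA, run by the authors, per the submitters' processing notes; its version and settings are not given in the sources used here. They ran from 1.9 to 14.17, with array medians of 5.15 to 5.34, and no 2 arrays were duplicates. The number of arrays limits the precision. Probe sets were named by matching the transcript identifier in their name to RefSeq; 283 stayed unnamed.

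One limma 3.58.1 model (R 4.3.3) with a mean for each of 8 groups was fitted to all 1246 probe sets, without a filter (16 residual and 4.37 prior degrees of freedom), with Benjamini-Hochberg adjustment over the 1246 within each contrast and a threshold of 0.05. The fit and the permutation test were tested on simulated data. The text names all members, other listed genes called over the 4 ages (up to 6 a list, by smallest p), and for each called member the 2 named genes of highest Pearson r. The members and lists were chosen with earlier results of these data known. Of 6 planned pairs 5 were run, since St6gal2 had no named probe set.

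Pairing was checked at each age by correlating, for equal replicate numbers, how far the mutant and the normal array lay from the mean of their own group; r was above 0.1 in 3 of 12 pairs, the 3 pairs of 2 months (r = 0.245 to 0.662), and lay between -0.03 and 0.08 otherwise, so numbers were taken as pairing at 2 months alone. Alternatives were other centring, quantile normalization, a filter at the 25th percentile, an intensity trend with robust fit, array weights, the arrays of the compared groups alone, a replicate block, 3 arrays of high Grifin left out, Grifin and Dcn as covariates, and each array left out; the 6 arrays of 2 months alone with a block, and the pair test with genotype permuted within replicate number at 2 months, were added after seeing the data.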

Additional observations from a re-analysis of the deposited data

How the results depend on the processing

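The 5 calls over the 4 ages held in all 32 alternatives run, with 5 to 7 members called. Quantile normalization added St3gal2 (adjusted p = 0.00382, limma) and St6galnac4 (0.0487), array weights added St3gal2 (0.0138), and the replicate block added St3gal2 (0.0457). Of all 1246 probe sets these settings called 318, 333 and 280, against 282 in the main fit. Counts at single ages moved more. At 1 month, where 0 were called, array weights called 2 members, St3gal4 and St3gal6, and the arrays of that age alone 1, St3gal6. At this age the 2 settings called 52 and 28 of all 1246 probe sets, against 4 in the main fit. At 2 months the 1 call became 0 with quantile normalization, the replicate block, Grifin-high arrays left out, Grifin and Dcn as covariates, the arrays of that age alone, and those 6 arrays with the block. In the same order these settings called 57, 30, 1, 6, 2 and 16 of all 1246 probe sets, against 43. At 3 months the 3 calls became 5 with quantile normalization, 4 with centring and with the filter (both adding St3gal6), 1 with array weights (St3gal2), 0 with the covariates and 1 with that age alone (St3gal6). Over all 1246 probe sets the main fit called 150, quantile normalization 185, centring 157, array weights 101, the covariates 111 and that age alone 40. The filter called 140 of 934. At 4 months the 4 calls became 7 with array weights, which called 240 of all 1246 probe sets, against 161 in the main fit. Array weights also called 1 member between 1 and 4 months in normal retinas and 3 for a change of the difference with age, where 0 were called. Between 1 and 4 months in normal retinas they called 26 of all 1246 probe sets, against 0. For the change of the difference, the share of all probe sets under array weights is not given here. The 1 pair called became 0 without the Grifin-high arrays and with genotype permuted within replicate number at 2 months, a replicate block chosen after seeing the data. Leaving out each array in turn gave 5 to 6 calls over the 4 ages, 0 at 1 month and 0 to 1 at 2 months. It gave 0 to 4 at 3 months, 3 to 5 at 4 months and 0 to 2 pairs. Of all 1246 probe sets these fits called 237 to 344 over the 4 ages, 3 to 13 at 1 month and 14 to 62 at 2 months. They called 66 to 168 at 3 months and 107 to 179 at 4 months. St3gal4 over St3gal6 turned to 0.0167 without mutant array 3 of 2 months and 0.0196 without mutant array 3 of 4 months (-0.0338 with all arrays, and -0.0742 at the other end without mutant array 2 of 2 months). No member's log2 difference that was recomputed changed sign. The cause of these moves was not tested. The replicate block could not be fitted for the contrasts of age within a genotype, because numbers are nested in age.

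Rescaling moved the share of higher calls among all probe sets. Over the 4 ages it was 61.0%, against 50.6% with quantile normalization and 70.3% with arrays centred on their medians; at 4 months it was 73.3%, against 53.5% with quantile normalization. At 1 month it was 75% of few calls, against 87.5% and 90%. The signal over background is unknown. The 4 calls at 2 and 3 months had adjusted p-values of 0.0319 to 0.0478 and were each lost in some alternatives; at 4 months St3gal1, St6gal1 and St6galnac4 held in all 33 alternatives, and St3gal6 in 29.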
